A study of Homo sapiens with 8 samples.

Results

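The mRNA levels of 10 ATP-binding cassette (ABC) transporter genes linked to drug efflux were examined in human colon cancer cells that differ in their sensitivity to 5-fluorouracil (5-FU). The genes were ABCB1, ABCG2, ABCC1, ABCC2, ABCC3, ABCC4, ABCC5, ABCC10, ABCC11 and ABCA1, chosen by name and found under their Ensembl identifiers among the 64253 genes of the count tables. RNA-seq libraries had been made from 4 groups with 2 replicates each. HCT-8 is an established line that is sensitive to 5-FU. HCT-8/FU is a resistant line paired with it, obtained from a supplier. Both were grown in unconditioned medium. The other groups, CM of HCT-8 and CM of HCT-8/FU, were HCT-8 cells grown in conditioned medium (CM) that had been collected from HCT-8 or HCT-8/FU cells after 48 h. The sources do not say whether replicates were separate cultures, so p-values measure the spread between these libraries, which may be technical.

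ABC transporters bind and hydrolyse ATP to move substrates across membranes, and several of them pump drugs out of cells. ABCB1 (P-glycoprotein) and ABCG2 (BCRP) carry a broad range of hydrophobic drugs. The ABCC genes encode the multidrug resistance-associated proteins (MRPs), which export organic anions and conjugates. Of these, ABCC1, ABCC2, ABCC3 and ABCC10 encode long forms with an additional membrane domain at the amino terminus, and ABCC4, ABCC5 and ABCC11 encode short forms that are known for the export of cyclic nucleotides and of nucleotide analogues. ABCA1 exports cholesterol and phospholipids to lipid-poor apolipoprotein A-I. In the gut, ABCB1, ABCG2 and ABCC2 sit in the apical membrane of epithelial cells and ABCC3 in the basolateral membrane.

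All 10 genes were detected in every library. The lowest count was 9, for ABCA1 in HCT-8 replicate 1, and all 10 passed the filter on low counts, so none was at 0 in any group. Counts on genes ranged from 5804124 in HCT-8/FU replicate 2 to 34881349 in HCT-8 replicate 2. Between 20 and 29.6% of records were not aligned in HCT-8 replicate 1, HCT-8/FU replicate 2 and CM of HCT-8 replicate 1, against 3.58 to 4.43% in the other 5 libraries. The libraries expressed markers of colon epithelium (EPCAM at 298 to 502 CPM, the normalized count relative to the library size). The lowest of the 9 listed was KRT20, at 4.79 to 16.9 CPM. Of 5 leukocyte markers PTPRC and CD3E were at 0 in every library, while CD68 had 1 to 18 counts, LYZ 2 to 25 and CD79A 0 to 11. Of 5 fibroblast markers COL1A1 had 8.19 to 13.8 CPM and PDGFRB 4.35 to 9.04 CPM, while COL1A2 was at 0 in every library. The endothelial marker PECAM1 had 0.79 to 1.92 CPM.

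Levels of different genes were compared as CPM per kb of exon, since the exonic lengths ran from 5602 bases (ABCG2) to 11365 bases (ABCC5). In HCT-8 cells, ABCC1 was highest at 21.1 ± 0.646 CPM per kb (SD, n = 2), followed by ABCB1 at 19.8 ± 0.373, ABCC3 at 17.4 ± 0.238, ABCC4 at 11.0 ± 0.205, ABCC5 at 8.34 ± 0.289 and ABCC10 at 4.26 ± 0.0831. The last 4 genes stood at 1.70 ± 0.286 (ABCG2), 1.5 ± 0.194 (ABCC11), 0.667 ± 0.0647 (ABCC2) and 0.120 ± 0.022 (ABCA1) CPM per kb. Neighbours in this order did not overlap between replicates except ABCG2 and ABCC11. Taken over all 8 libraries, the level of ABCB1 was at or above that of 89.5% of the 19857 tested genes with a known length, and ABCC1, ABCC3 and ABCC4 followed at 87.2, 85.8 and 80.7%. ABCA1 was at or above only 5.82% of them. The median tested gene stood at 3.49 CPM per kb, and ABCG2, ABCC11, ABCC2 and ABCA1 lay below it with means of 1.84, 1.27, 0.815 and 0.143.

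**Figure D1:**
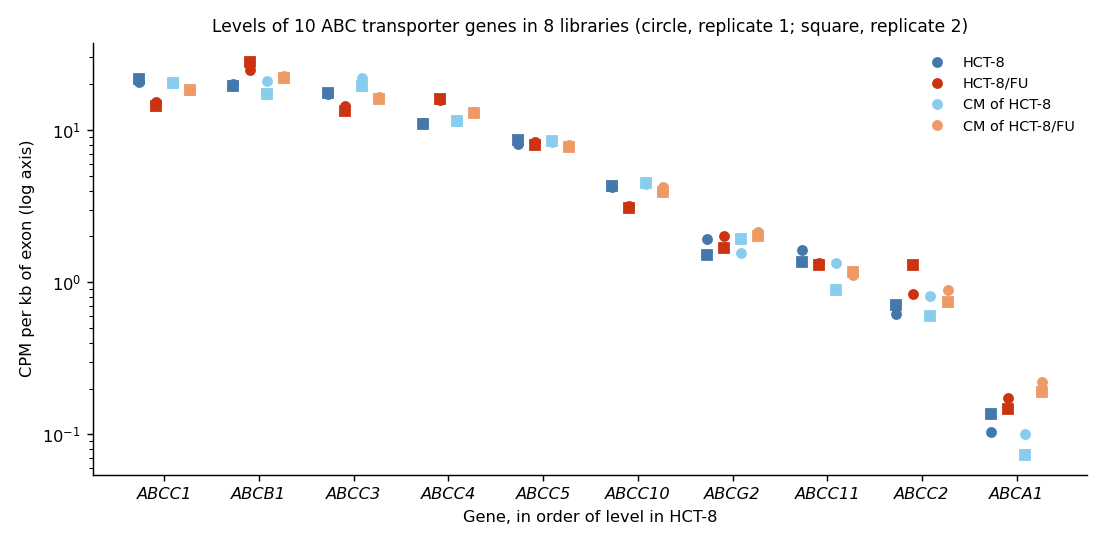
Level of each transporter gene in every library, in CPM per kb of exon on a log axis, with genes ordered by their level in HCT-8 and colours marking the 4 groups. Levels span more than 2 orders of magnitude, from 0.120 CPM per kb for ABCA1 to 21.1 for ABCC1 in HCT-8, and the differences between groups are small beside those between genes.

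The order of the lower 6 genes was the same in all 4 groups, whereas that of the upper 4 differed. In HCT-8/FU cells, ABCB1 led at 26.3 ± 2.18 CPM per kb, ABCC4 followed at 15.9 ± 0.301, and ABCC1 and ABCC3 came after them at 14.9 ± 0.674 and 13.8 ± 0.678. In CM of HCT-8, ABCC3, ABCC1 and ABCB1 stood at 20.6 ± 1.71, 20.4 ± 0.042 and 19.0 ± 2.54 CPM per kb, and these neighbours overlapped between replicates. In CM of HCT-8/FU, ABCB1 led again at 22.4 ± 0.368, followed by ABCC1 at 18.4 ± 0.0682, ABCC3 at 16.1 ± 0.367 and ABCC4 at 13.0 ± 0.0488 CPM per kb. These ranks rest on the length chosen for each gene. With the length of the canonical transcript, ABCC3 led in HCT-8 at 29.4 CPM per kb, ABCB1 still led in HCT-8/FU at 32.4 and in CM of HCT-8/FU at 27.7, and in the latter ABCB1 and ABCC3 overlapped.

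The first comparison asked how the resistant line differs from the sensitive line. Of the 10 transporter genes, 0 passed both thresholds used here, a false discovery rate (FDR) up to 0.05 and a log2 fold change of 0.58 or more in size, in edgeR's quasi-likelihood test of HCT-8/FU against HCT-8. Among all tested genes 21.3% passed both. DESeq2 also gave 0, and 6 of the 10 had an unadjusted p under 0.05. At least 36.7% of all tested genes lay under that p, since every gene past the FDR does. At the FDR alone 5 of the 10 passed, against 36.7% of all tested genes. ABCB1 and ABCC4 were higher in HCT-8/FU cells, and ABCC1, ABCC3 and ABCC10 were lower. The groups did not overlap for 8 of the 10 genes, 4 higher and 4 lower, where they did not overlap for 65% of all tested genes. The median log2 fold change of the 10 genes was 0.087, and that of all tested genes was 0.0082. In bulk RNA, fewer cells that express a gene and less of its RNA per cell cannot be told apart.

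ABCB1 (ENSG00000085563, chromosome 7, 87503017 to 87713323, minus strand, GRCh38) stood at 129 and 126 CPM in HCT-8 and at 159 and 179 CPM in HCT-8/FU. Both HCT-8/FU libraries lay above both HCT-8 libraries. The log2 fold change was 0.40 ± 0.093 (SE; 95% interval 0.20 to 0.60; adjusted p = 0.0029), a 1.32-fold higher level. When each library was corrected for the GC content and length of genes, as described further on, it was −0.028 with an adjusted p of 0.88, and without HCT-8 replicate 2 the adjusted p was 0.076. ABCG2 (ENSG00000118777, chromosome 4, 88090150 to 88231628, minus strand), the other broad drug pump, had 10.7 and 8.4 CPM in HCT-8 and 11.3 and 9.36 CPM in HCT-8/FU. These groups overlapped, and the log2 fold change was 0.20 ± 0.19 (adjusted p = 0.47). It was −0.036 without HCT-8 replicate 2 and −0.084 with the correction.

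Among the long MRP genes, ABCC1 (ENSG00000103222, chromosome 16, 15949138 to 16143257, plus strand), which encodes the exporter of glutathione conjugates and of many drugs, had 180 and 188 CPM in HCT-8 and 134 and 126 CPM in HCT-8/FU. Both resistant libraries lay below both sensitive ones. Its log2 fold change was −0.50 ± 0.073 (95% interval −0.66 to −0.35; adjusted p = 6.2e-05), a level lower by 1.41-fold. It passed the FDR in all 20 alternatives that kept the fold threshold, with log2 fold changes between −0.56 and −0.41. ABCC3 (ENSG00000108846, chromosome 17, 50634777 to 50692253, plus strand), a basolateral exporter of bile salts and glucuronides, had 166 and 169 CPM in HCT-8 and 138 and 129 CPM in HCT-8/FU. Its log2 fold change was −0.33 ± 0.079 (adjusted p = 0.0043). ABCC10 (ENSG00000124574, chromosome 6, 43427366 to 43450427, plus strand), which encodes MRP7, had 34.0 and 34.9 CPM against 25.8 and 24.9 CPM. Its groups did not overlap either, and the log2 fold change was −0.44 ± 0.10 (adjusted p = 0.0036).

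The apical exporter gene ABCC2 (ENSG00000023839, chromosome 10, 99782640 to 99852594, plus strand) went the other way. It had 4.87 and 5.59 CPM in HCT-8 and 6.58 and 10.2 CPM in HCT-8/FU, where the shallow replicate 2 held only 61 counts of it. The log2 fold change was 0.57 ± 0.26 (95% interval 0.023 to 1.12; adjusted p = 0.099). Leaving out HCT-8/FU replicate 1 gave 0.93 (adjusted p = 0.035), past both thresholds, and leaving out HCT-8/FU replicate 2 gave 0.30 (adjusted p = 0.44).

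Of the short MRP genes, ABCC4 (ENSG00000125257, chromosome 13, 95019835 to 95301475, minus strand), an exporter of cyclic nucleotides and nucleotide analogues, showed the lowest adjusted p of the 10 genes. Its level was 96.4 and 93.9 CPM in HCT-8 and 135 and 139 CPM in HCT-8/FU. The groups were well apart, and the log2 fold change was 0.53 ± 0.074 (95% interval 0.37 to 0.68; adjusted p = 4.4e-05), a 1.44-fold higher level. It reached 0.61, past the fold threshold, when CM of HCT-8 replicate 2 served as the normalization reference. With the GC and length correction it was 0.22, and the adjusted p of 0.064 no longer passed the FDR. ABCC5 (ENSG00000114770, chromosome 3, 183919934 to 184017939, minus strand), which like ABCC11 is known for exporting fluoropyrimidine nucleotides, had 92.4 and 97.1 CPM against 95.2 and 91.3 CPM. Its groups overlapped, with a log2 fold change of −0.022 ± 0.078, and the 95% interval of −0.19 to 0.14 did not reach the fold threshold in either direction. ABCC11 (ENSG00000121270, chromosome 16, 48165773 to 48247568, minus strand) had 13.8 and 11.5 CPM against 11.3 and 11.0 CPM. Its log2 fold change was −0.15 ± 0.20 (adjusted p = 0.61).

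**Figure D2:**
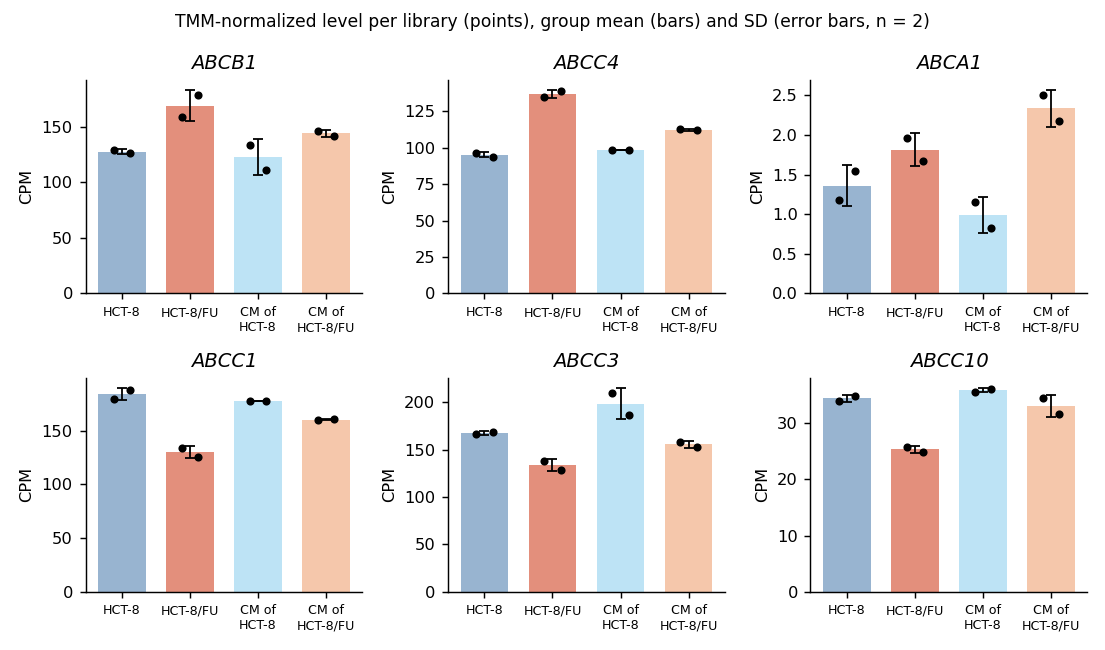
CPM of ABCB1, ABCC4, ABCA1, ABCC1, ABCC3 and ABCC10 in the 4 groups; points are libraries, bars are means starting at 0 and error bars are SD (n = 2). ABCC4 stands at 135 and 139 CPM in HCT-8/FU against 96.4 and 93.9 CPM in HCT-8, and ABCC1 at 134 and 126 against 180 and 188.

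The lipid exporter gene ABCA1 (ENSG00000165029, chromosome 9, 104781006 to 104928155, minus strand) was the least expressed of the 10. In HCT-8 it had 1.18 and 1.54 CPM from 9 and 52 counts, and in HCT-8/FU 1.96 and 1.67 CPM from 59 and 10 counts. The log2 fold change was 0.39 ± 0.39 (95% interval −0.44 to 1.22; adjusted p = 0.48), an interval that includes the fold threshold.

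The second comparison asked whether medium conditioned by resistant cells changes HCT-8 cells, against medium conditioned by HCT-8 cells themselves. Of the 10 transporter genes 1, ABCA1, passed both thresholds, and 9.25% of all tested genes did (7.97% higher and 1.28% lower). ABCA1 had 1.15 and 0.829 CPM in CM of HCT-8, from 10 and 22 counts, and 2.50 and 2.17 CPM in CM of HCT-8/FU, from 78 and 67 counts. Both CM of HCT-8/FU libraries lay above those of CM of HCT-8 and above those of HCT-8. The log2 fold change was 1.31 ± 0.39 (95% interval 0.48 to 2.13; adjusted p = 0.026), a 2.48-fold higher level. The call was lost in 7 of 21 alternatives. In each count of calls, here and below, 1 alternative is the main fit without the fold threshold, where no call can be lost. DESeq2 gave adjusted p-values of 0.070 and 0.11, the GC and length correction gave a log2 fold change of 1.16 (adjusted p = 0.072), and with the replicate block added 1.14 (adjusted p = 0.11). Without CM of HCT-8 replicate 2 the log2 fold change was 1.02 (adjusted p = 0.21). It was 1.19 (adjusted p = 0.22) when replicate 1 of CM of HCT-8/FU was left out, and 1.40 (adjusted p = 0.13) when its replicate 2 was.

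Because ABCA1 was the single transporter gene past both thresholds, its start region is shown. The sequence is that of RefSeq (GRCh38.p14), the 250 bases before the annotated start at chr9:104928156-104928405 on the minus strand, written 5′ to 3′, with matches to a GC box (GGGCGG), an E box (CACGTG) and a TATA box (TATAAA) in capitals.
ABCA1: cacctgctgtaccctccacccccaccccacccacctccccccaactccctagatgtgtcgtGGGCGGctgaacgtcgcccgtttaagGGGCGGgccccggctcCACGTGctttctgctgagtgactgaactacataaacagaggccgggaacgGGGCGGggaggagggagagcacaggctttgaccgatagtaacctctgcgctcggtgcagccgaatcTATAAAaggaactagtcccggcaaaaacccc
The window held 3 matches to GGGCGG, beginning 189, 163 and 97 bases before the start, 1 match to CACGTG at 147 bases and 1 match to TATAAA at 31 bases. No match to CCAAT was found. Both strands were searched and the matches did not overlap. Of 35116 RefSeq windows of 250 bases, 42.6% held GGGCGG, 6.34% CACGTG, 10.7% TATAAA and 32% CCAAT. A match describes the letters of the window and not the binding of a factor. The tested genes whose levels were most like that of ABCA1 over the 8 libraries, among 12501 with at least 5 CPM on average, were KLF3, ACVR2A and NXT2, with Pearson correlations of log2 CPM of 0.958, 0.94 and 0.938. These are the highest of 12501 values, for a gene with 9 to 78 counts per library, and a link to ABCA1 was not tested.

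Among the other transporter genes in this comparison, ABCC3 alone passed the FDR, where 19.7% of all tested genes did. It had 210 and 187 CPM in CM of HCT-8 and 158 and 153 CPM in CM of HCT-8/FU. The groups did not overlap, and the log2 fold change was −0.35 ± 0.077 (adjusted p = 0.0045). With the GC and length correction it was −0.33 (adjusted p = 0.034). Leaving out each library in turn gave uncorrected log2 fold changes between −0.43 and −0.27. The FDR was no longer passed when replicate 2 of CM of HCT-8/FU was left out. ABCB1 had 134 and 111 CPM against 146 and 142 CPM, a log2 fold change of 0.25 ± 0.091 (adjusted p = 0.070). It was 0.38 (adjusted p = 0.0010) without replicate 1 of CM of HCT-8 and 0.11 (adjusted p = 0.41) without its replicate 2, and −0.14 (adjusted p = 0.44) with the GC and length correction. ABCC4 had 98.5 and 98.3 CPM against 113 and 112 CPM, a log2 fold change of 0.19 ± 0.072 (95% interval 0.038 to 0.34; adjusted p = 0.076). That interval did not reach the fold threshold, and the corrected value was −0.084 (adjusted p = 0.61). ABCC1 had 178 CPM in both libraries of CM of HCT-8 and 160 and 161 CPM in CM of HCT-8/FU, a log2 fold change of −0.14 ± 0.071 (adjusted p = 0.17).

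ABCC10, ABCC5, ABCG2, ABCC2 and ABCC11 gave log2 fold changes between −0.12 and 0.27 in the CM comparison, with adjusted p-values from 0.43 to 0.78. The intervals of ABCC5 and ABCC10 ended at −0.26 and −0.33 on the lower side, short of the fold threshold, while those of ABCG2 and ABCC2 ended at 0.60 and 0.80 and included it. The groups did not overlap for 4 genes that were higher and 4 that were lower, beside 61.4% of all tested genes. The median over the 10 genes was 0.15, and that of all tested genes was −0.059.

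**Figure D3:**
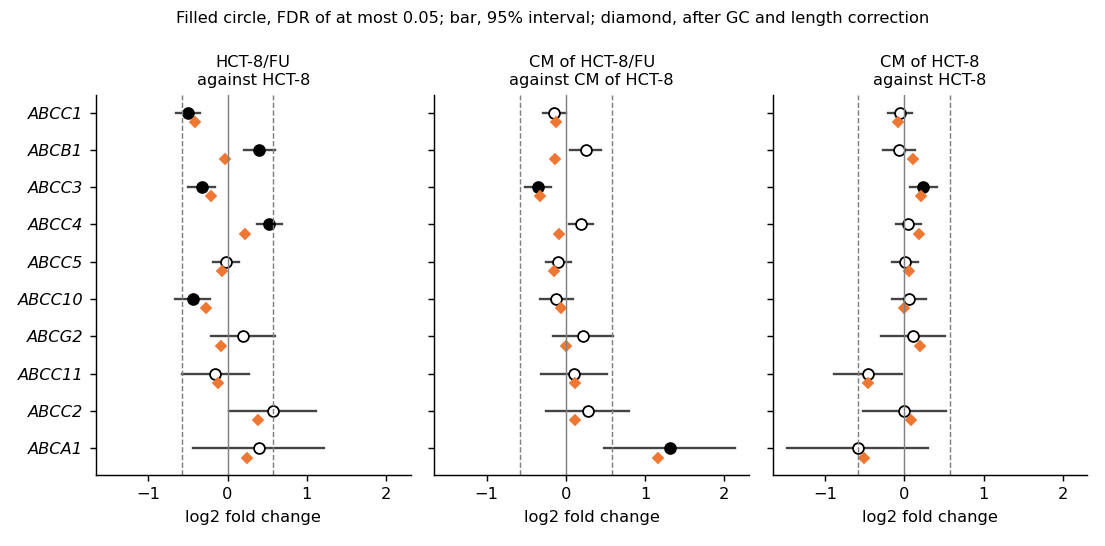
Log2 fold change of each gene in 3 comparisons with its 95% interval (bars), filled where the FDR was at most 0.05; diamonds give the value after the GC and length correction and dashed lines the fold threshold of 0.58. ABCA1 at 1.31 in the CM comparison is the only filled point beyond a dashed line.

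The third comparison, CM of HCT-8 against HCT-8, set HCT-8 cells in their own conditioned medium beside HCT-8 cells in unconditioned medium. Here 0 of the 10 genes passed both thresholds in edgeR's quasi-likelihood test, against 8.15% of all tested genes, and DESeq2 gave 0. An unadjusted p under 0.05 was found for 2 of them, and for at least the 19.4% of all tested genes that passed the FDR. The groups did not overlap for 3 genes that were higher and 3 that were lower, beside 54.3% of all tested genes. At the FDR alone ABCC3 passed, as did 19.4% of all tested genes. It was higher by 0.24 ± 0.078 on the log2 scale (adjusted p = 0.044), with 210 and 187 CPM in CM of HCT-8 and 166 and 169 CPM in HCT-8. ABCC3 passed the FDR in 8 of 20 alternatives. ABCC11 had 11.4 and 7.5 CPM against 13.8 and 11.5 CPM, a log2 fold change of −0.46 ± 0.20 (adjusted p = 0.14). Leaving out CM of HCT-8 replicate 1 gave −0.72 (adjusted p = 0.010), and leaving out CM of HCT-8 replicate 2 gave −0.12 (adjusted p = 0.77). With the 3 libraries of more than 15% unaligned records left out, it was −0.62. That fit had 1 library of each of these groups, and so no spread within either. ABCA1 had 1.15 and 0.829 CPM against 1.18 and 1.54 CPM, a log2 fold change of −0.59 ± 0.42 (adjusted p = 0.38). The other 7 genes lay between −0.067 and 0.11. This comparison shares the HCT-8 libraries with the first and the CM of HCT-8 libraries with the second.

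The difference between the HCT-8/FU comparison and the CM comparison, which share no library, was tested for each gene. Again 0 of the 10 passed both thresholds in edgeR's quasi-likelihood test, against 7.69% of all tested genes, and DESeq2 gave 0. An unadjusted p under 0.05 was found for 3 of them, and for at least the 11.6% of all tested genes that passed the FDR. At the FDR alone ABCC1 and ABCC4 passed, against 11.6% of all tested genes. ABCC1 was lower by a further 0.35 ± 0.10 in the HCT-8/FU comparison (log2 difference −0.35; adjusted p = 0.034), and ABCC4 was higher by a further 0.34 ± 0.10 (adjusted p = 0.047). They passed the FDR in 11 and 6 of 18 alternatives. For ABCC3 the difference was 0.024 ± 0.11 (95% interval −0.21 to 0.26), and for ABCA1 it was −0.92 ± 0.55 (95% interval −2.09 to 0.26).

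The direction of these differences followed the base composition of the transcripts. The exons of ABCB1, ABCG2, ABCC4, ABCC2 and ABCA1 held 40.4, 42.6, 42.8, 44.3 and 45.4% G and C, and all 5 genes had positive log2 fold changes in the HCT-8/FU comparison. Those of ABCC5, ABCC11, ABCC1, ABCC3 and ABCC10 held 47.8, 49.8, 53.8, 55.7 and 57.1%, and all 5 had negative ones. Across the 10 genes, which are not independent replicates, Pearson's r between GC content and log2 fold change was −0.91 and Spearman's rho −0.82. In the CM comparison they were −0.54 and −0.76. For 24 other ABC genes, described further on, r was −0.62 and rho −0.46 in the HCT-8/FU comparison, and −0.67 and −0.52 in the CM comparison. Over all tested genes with a known GC content, Pearson's r was −0.34 and −0.33, and Spearman's rho was −0.40 in both comparisons. The points of each correlation share their libraries, their depth and the normalization.

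With the counts of each library corrected for GC content and length, ABCC1 alone of the 10 genes passed the FDR in the HCT-8/FU comparison, at a log2 fold change of −0.41 ± 0.083 (adjusted p = 0.0020). ABCC4 was at 0.22 (adjusted p = 0.064), ABCC10 at −0.28 (adjusted p = 0.073), ABCC3 at −0.21 (adjusted p = 0.12) and ABCB1 at −0.028. The 0 genes past both thresholds in each comparison stood against 15.3% of all tested genes in the HCT-8/FU comparison and 4.80% in the CM comparison. The Pearson correlation of the 10 log2 fold changes with GC content was then −0.70 and −0.25. Over all tested genes with a known GC content it was −0.013 and −0.018. The correction takes out a trend with GC content or length that runs over all tested genes, also a true one. The part of GC content or length in the uncorrected differences was not tested.

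**Figure D4:**
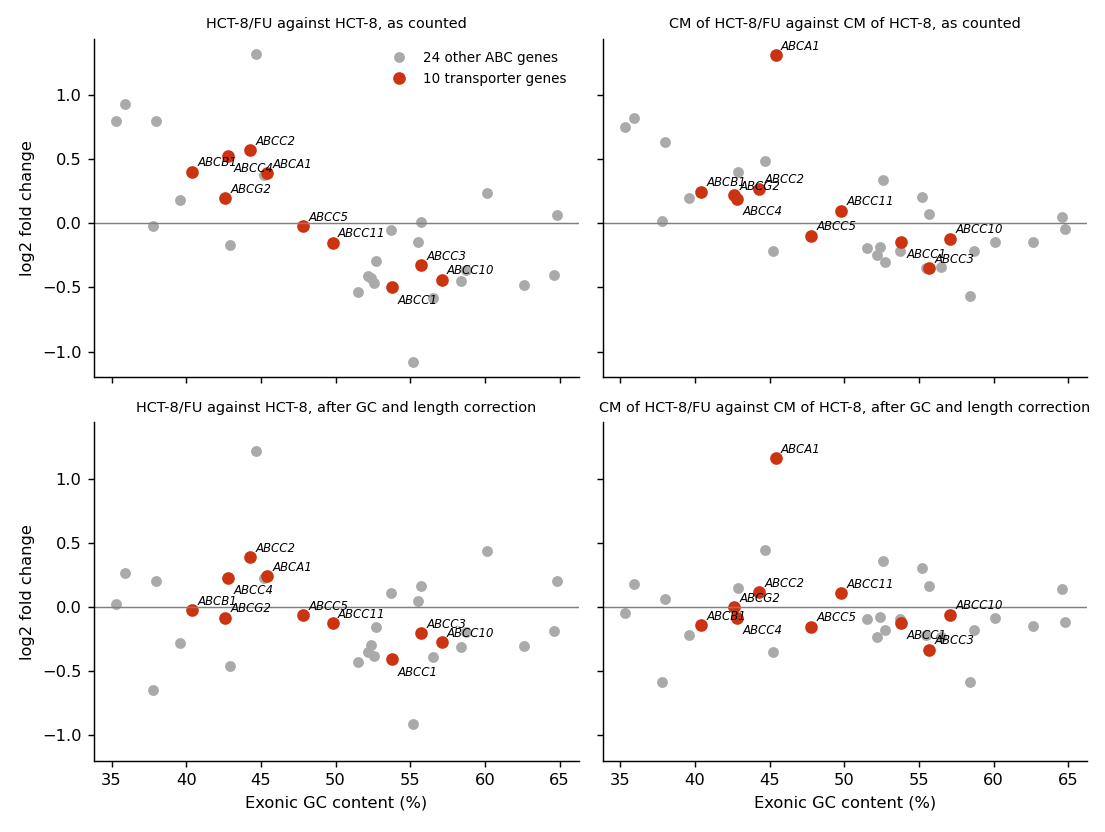
Log2 fold change against exonic GC content (%) for the 10 transporter genes (red) and 24 other ABC genes (grey), as counted (top) and after the GC and length correction (bottom), for the HCT-8/FU comparison (left) and the CM comparison (right). The red points fall with GC content at the top left, with Pearson's r of −0.91 over the 10 genes.

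Of 38 other ABC genes listed, 24 passed the filter on low counts. In the HCT-8/FU comparison, 4 of the 24 were higher and 1 lower past both thresholds, beside 13.2 and 8.12% of all tested genes. ABCB10, a mitochondrial inner membrane transporter linked to haem synthesis, had 26.5 and 22.2 CPM in HCT-8 and 59.6 and 59.8 CPM in HCT-8/FU. It rose by 1.32 ± 0.11 on the log2 scale (adjusted p = 2.8e-07), and by 1.22 with the GC and length correction. ABCG1, which like ABCA1 exports cholesterol, had 15.9 and 18.2 CPM against 7.94 and 8.69 CPM. Its log2 fold change was −1.08 ± 0.17 (adjusted p = 0.00012), and −0.91 with the correction. The calls of these genes were kept in all 21 alternatives. ABCG1 was also lower past both thresholds in CM of HCT-8 against HCT-8, at a log2 fold change of −0.67. That call was kept in 18 of 21 alternatives.

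ABCE1, a ribosome recycling factor that is no transporter, ABCD3 of the peroxisomal membrane, and ABCA5 rose by 0.93, 0.80 and 0.80 on the log2 scale in HCT-8/FU cells. Their calls were lost with the GC and length correction, at 0.27, 0.20 and 0.022, and the call of ABCA5 was lost in 8 alternatives in all. Among these were the fits without HCT-8 replicate 1 (0.62, adjusted p = 0.15) and without HCT-8/FU replicate 1 (0.45, adjusted p = 0.44), and those that left out 1 library of CM of HCT-8/FU (0.80, adjusted p = 0.061 each). In the CM comparison, ABCE1 and ABCD3 were the 2 other ABC genes past both thresholds, both higher, at 0.82 ± 0.084 and 0.63 ± 0.090. That is 8.33% of the 24 genes, near the 7.97% of all tested genes that were higher. These calls were lost with the correction as well, and that of ABCD3 also without CM of HCT-8 replicate 2 (0.57, adjusted p = 0.00056). The median log2 fold change over the 24 genes was −0.16 in the HCT-8/FU comparison and −0.094 in the CM comparison. CFTR, ABCB11 and ABCG5 were among the 14 ABC genes below the filter.

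**Figure D5:**
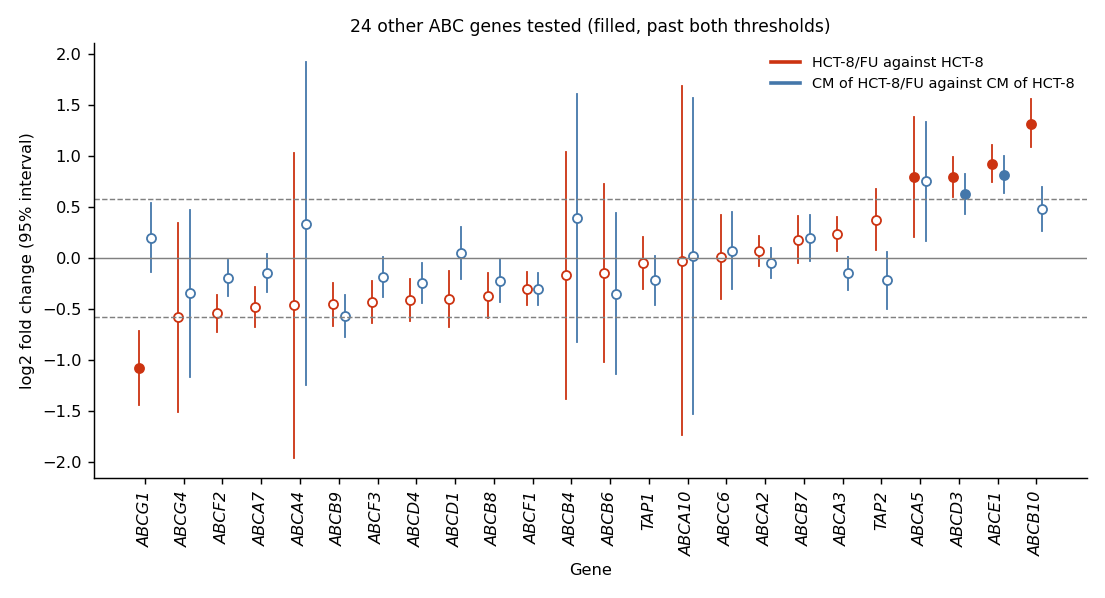
Log2 fold change with its 95% interval for the 24 other ABC genes tested, in the HCT-8/FU comparison (red) and the CM comparison (blue), filled where both thresholds were passed. ABCB10 at 1.32 and ABCG1 at −1.08 in the HCT-8/FU comparison stand at the right and left ends.

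Carriers of nucleosides and bases were listed beside them. Of 9 such genes 7 were tested, and in the HCT-8/FU comparison 1 was lower past both thresholds, as were 8.12% of all tested genes. SLC29A3, an equilibrative nucleoside transporter of intracellular membranes, had 19.6 and 24.7 CPM in HCT-8 and 15.5 and 14.5 CPM in HCT-8/FU. Its log2 fold change of −0.58 ± 0.14 (adjusted p = 0.0040) lay at the fold threshold, and the call was kept in 10 of 21 alternatives. The call was lost without HCT-8 replicate 2 (−0.40, adjusted p = 0.11) and without HCT-8/FU replicate 2 (−0.56, adjusted p = 0.020). In the CM comparison 0 of the 7 passed both thresholds in edgeR's quasi-likelihood test, against 9.25% of all tested genes, and 2 passed the FDR, against 19.7%.

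Of 24 regulators and membrane anchors of ABC transporters, 23 were tested. In the HCT-8/FU comparison 4.35% of the 23 were higher past both thresholds and 8.7% lower, beside 13.2 and 8.12% of all tested genes. HIF1A was higher, and NR1H2 was among those lower. NR1H2 encodes the oxysterol receptor LXR beta, which activates ABCA1 and ABCG1 transcription. It had 40.5 and 45.9 CPM in HCT-8 and 21.7 and 24.2 CPM in HCT-8/FU, a log2 fold change of −0.95 ± 0.12 (adjusted p = 1.5e-05) that was called in all 21 alternatives. Exons of other genes on the opposite strand cover 22.1% of the exonic bases of NR1H2, and the strand setting of the counting is not given. HIF1A, the hypoxia-inducible factor gene known to act on ABCB1, rose by 0.95 ± 0.13 (adjusted p = 2.6e-05).

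In the CM comparison 3 of the 23 regulators, or 13%, rose past both thresholds and none fell, beside 7.97% higher and 1.28% lower among all tested genes. HIF1A had 27.2 and 19.9 CPM in CM of HCT-8 and 54.8 and 52.3 CPM in CM of HCT-8/FU, a log2 fold change of 1.23 ± 0.13 (adjusted p = 7.2e-06) that was called in all 21 alternatives and stood at 0.76 with the GC and length correction. The aryl hydrocarbon receptor gene AHR, known to act on ABCG2, rose by 0.73 ± 0.089 (adjusted p = 3.2e-05). RDX, which encodes radixin, a linker of membrane proteins to actin, rose by 1.05 ± 0.19 (adjusted p = 0.0011). In HCT-8 cells in unconditioned medium RDX had 20.4 and 13.1 CPM, in CM of HCT-8 9.09 and 7.27 CPM and in CM of HCT-8/FU 16.3 and 16.6 CPM. RDX was lower in CM of HCT-8 than in HCT-8, at a log2 fold change of −1.0 ± 0.20 (adjusted p = 0.0025), a call kept in all 21 alternatives. AHR had 71.0 and 71.4 CPM in HCT-8, 52.1 and 48.2 CPM in CM of HCT-8 and 87.2 and 78.3 CPM in CM of HCT-8/FU. Its log2 fold change in CM of HCT-8 against HCT-8 was −0.51 ± 0.091 (adjusted p = 0.0012), which passed the FDR only. That of HIF1A was −0.59 ± 0.13 (adjusted p = 0.0062), past both thresholds, a call kept in 14 of 21 alternatives. It was −0.34 (adjusted p = 0.096) without CM of HCT-8 replicate 2 and −0.38 (adjusted p = 0.066) with the GC and length correction. With that correction, in the CM comparison AHR was at 0.32 and RDX at 0.59 (adjusted p = 0.066) and, in the HCT-8/FU comparison, HIF1A at 0.43, none of them called.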

How the data were processed

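Paired reads of bead-captured mRNA had been aligned to GRCh38 (HISAT2) and counted on Ensembl genes (HTSeq 0.11.2) by the authors, and the deposited values are raw counts of 8 libraries. No source used here gives the strand setting. The 5 lines that name no gene were left out, the largest being no feature with 33.7 to 49.6% of records. The deposited DESeq2 tables, which hold the authors' own fold changes and p-values, were not used.

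Genes were named from GENCODE 44, where 56105 of 64253 identifiers were found. Counts were fitted in R 4.3.3 with edgeR 4.0.16 (quasi-likelihood test, TMM, filterByExpr), with 4 group means over all 8 libraries and no replicate block. CPM are TMM-normalized. P-values were adjusted by Benjamini-Hochberg over 20305 genes. The SE of a log2 fold change is its size over the square root of F. The GC and length correction subtracts a spline with 5 degrees of freedom per library, over 19857 genes. DESeq2 1.42.0 was an alternative.

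The fits were tested on simulated data. The transporter genes and the gene lists were chosen with earlier results of these data known. All 10 transporter genes are named in every comparison, and of the lists each gene called in the HCT-8/FU or CM comparison, at most 6 per list, except a gene whose result is not reported here. The genes most like a transporter gene were sought for the one with the largest called change. The plots were drawn with matplotlib 3.10.9.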

Additional observations from a re-analysis of the deposited data

Results flagged for a closer look

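The difference between the HCT-8/FU comparison and the CM comparison was itself tested. Past both thresholds, beside 7.69% of all tested genes, were 2 of the 24 other ABC genes, 0 of the 7 carriers and 5 of the 9 markers of colon epithelium. For ABCB10 the log2 difference was 0.84 ± 0.15 (edgeR's quasi-likelihood test, adjusted p = 0.0017), and 0.78 with the GC and length correction, and among 19 alternatives the call was lost only without HCT-8 replicate 2, at 0.60 (adjusted p = 0.059). For ABCG1 the log2 difference was −1.28 ± 0.23 (adjusted p = 0.0020), with 9.67 and 11.7 CPM in CM of HCT-8 and 13.1 and 12 CPM in CM of HCT-8/FU. Unconditioned HCT-8 had 15.9 and 18.2 CPM of ABCG1, above both CM groups. For the regulator NR1H2 the log2 difference was −0.80 ± 0.16 (adjusted p = 0.0045), with 36.7 and 39.0 CPM in CM of HCT-8 and 31.6 and 36.8 CPM in CM of HCT-8/FU. Of the epithelial markers, EPCAM had a log2 difference of 0.70 ± 0.13 (adjusted p = 0.0020), and 0.64 (adjusted p = 0.038) with the correction. EPCAM had 347 and 298 CPM in HCT-8 and 482 and 502 CPM in HCT-8/FU. It had 501 and 422 CPM in CM of HCT-8 and 434 and 435 CPM in CM of HCT-8/FU. With the correction, the other epithelial markers ran from −0.19 (CDH1, adjusted p = 0.41) to 1.35 (KRT20, adjusted p = 0.020).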

How the results depend on the processing

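The number of the 10 transporter genes past both thresholds was 0 in the HCT-8/FU comparison, 1 in the CM comparison, 0 in the third comparison (CM of HCT-8 against HCT-8), then 0 for the difference. With the FDR alone these became 5, 2, 1 and 2. Leaving out each library in turn gave 0 to 1 in the HCT-8/FU comparison (ABCC2 without HCT-8/FU replicate 1), 0 to 1 in the CM comparison and 0 to 1 in the third comparison (ABCC11 without CM of HCT-8 replicate 1). CM of HCT-8 replicate 2 as normalization reference gave 1 in the HCT-8/FU comparison (ABCC4). In the CM comparison, DESeq2 gave 0, fitted to 4 groups or to the compared ones, as did the GC and length correction without and with the replicate block. Leaving out the 3 libraries in which more than 15% of records were not aligned was added after seeing the data. It leaves 1 residual degree of freedom, and 1 library on each side of the third comparison. No count is given for that comparison, since neither of its groups then has a spread. The log2 fold change of ABCB1 in the HCT-8/FU comparison went from 0.40 to −0.028 with the GC and length correction and to −0.027 with the replicate block added. The cause of these changes was not tested, apart from the construction of the alternatives.

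Same-numbered replicates deviated from their group means with correlations between −0.12 and 0.13 over genes, so the numbers were not taken to pair the samples. The replicate block left 0, 1, 0 and 0 transporter genes past both thresholds, and raised the adjusted p of ABCC4 for the difference from 0.047 to 0.064. It ended the call of SLC29A3 in the HCT-8/FU comparison, at a log2 fold change of −0.55. Among all genes, the FDR alone gave 7442, 4005, 3949 and 2350 genes against 4325, 1878, 1655 and 1561. The GC and length correction gave 954 in the CM comparison, 526 higher and 428 lower, against 1619 and 259, with 1089 in the third comparison. It gave 897 and 1033 with the replicate block, and DESeq2 on the groups compared only gave 1064 for the latter. In the HCT-8/FU comparison the correction gave 1446 higher and 1600 lower against 2677 and 1648. Among the 24 other ABC genes, the correction gave 2 against 5 in the HCT-8/FU comparison, and 1 that was lower against 2 that were higher in the CM comparison. Where 1 library of a group was left out, the other was assumed to vary like the other groups. Depth limits ABCA1 and ABCC2 most, with 9 and 37 counts in HCT-8 replicate 1.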
